A study of Triticum turgidum subsp. durum with 8 samples.

Results

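The miR5368 group comprises every sequence of the deposited miRNA list named miR5368 or MIR5368. It holds 43 of the 1473 distinct sequences, and each of the 43 has a name of its own. By name, 22 are p5 entries, 18 are p3 entries and 3 carry the mature miR5368 name, where p5 and p3 are the authors' labels for the 5' and the 3' arm of a precursor. Several of these sequences have the same values in all 8 libraries: 21 of them fall into 9 such groups, so that the family has 31 distinct sets of values.

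Small RNA was sequenced from shoots of 3-week-old durum wheat seedlings. The genotypes were DBA Aurora (Au), which tolerates water-deficit and heat (WH) stress, and the WH-sensitive breeding line L6. Their parents had received WH stress or had been grown as the control group (CG), and the progeny were given no nitrogen (N) or complete nutrients (C). The 8 resulting conditions are AuCG_N, AuCG_C, AuWH_N, AuWH_C, L6CG_N, L6CG_C, L6WH_N and L6WH_C, each with 1 library from the pooled RNA of 6 plants, so that no condition has a replicate. The libraries of 1 genotype and parental treatment, with and without N, form a pair, and there are 4 such pairs.

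Plant miRNAs are short RNAs that Dicer-like enzymes cut from hairpin precursors and that Argonaute proteins use to find complementary transcripts. miR5368 takes its name from soybean (the prefix gma), and the wheat sequences were assigned to it by similarity. In the deposited annotation all 43 sequences belong to Group 3, together with 79 sequences of other families. For this group the reads match a known miRNA and the wheat genome, but the genomic sequence around the match could not be folded into a hairpin. The letters of the shared sequence resemble plastid large-subunit ribosomal RNA, a background remark for which no alignment was made. Whether the reads came from a miRNA precursor, from ribosomal RNA or from copies of it in the nuclear genome was not tested, so the values below are those of the named sequences and not of a known miRNA gene. The sequences were 18 to 25 nt long, and 10 of the 43 (23.3%) had the 21 nt that are usual for plant miRNAs, against 607 of all 1473 sequences (41.2%).

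The 43 names describe pieces of 1 shared sequence and not 43 separate genes. The deposited table places the family in 22 genomic stretches of 36 to 219 bases on 12 of the 14 genome sequences it refers to (assembly Svevo.v1, whose chromosome names were not paired with these sequences here). The stretch that holds most of them is 163 bases long and contains 38 of the 43 exactly. It lies on the minus strand at positions 772450953 to 772451115 of the fourth of these genome sequences by number. The other 5 sequences differ from it at 1 base, and 2 of them, miR5368_L+5 and miR5368_L+2, also run 1 base past its end. A typical member matched 13 stretches (median, range 0 to 19), so its reads cannot be traced to 1 locus. On another of these genome sequences 4 stretches lie within 48.3 kb.

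Positions are counted here from the first base of that 163-base stretch. On it the members form 3 blocks. The left block covers bases 1 to 29 and holds 14 sequences, of which 13 have p5 names. The middle block covers bases 82 to 112 with 20 sequences, 9 named p5 and 11 named p3. The right block, from base 139 to 1 base past the end of the stretch (base 164), has 9 sequences, namely 6 with p3 names and the 3 with the mature name. Within a block all sequences overlap and share a common core of 10 bases (left), 12 bases (middle) or 13 bases (right).

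**Figure D1:**
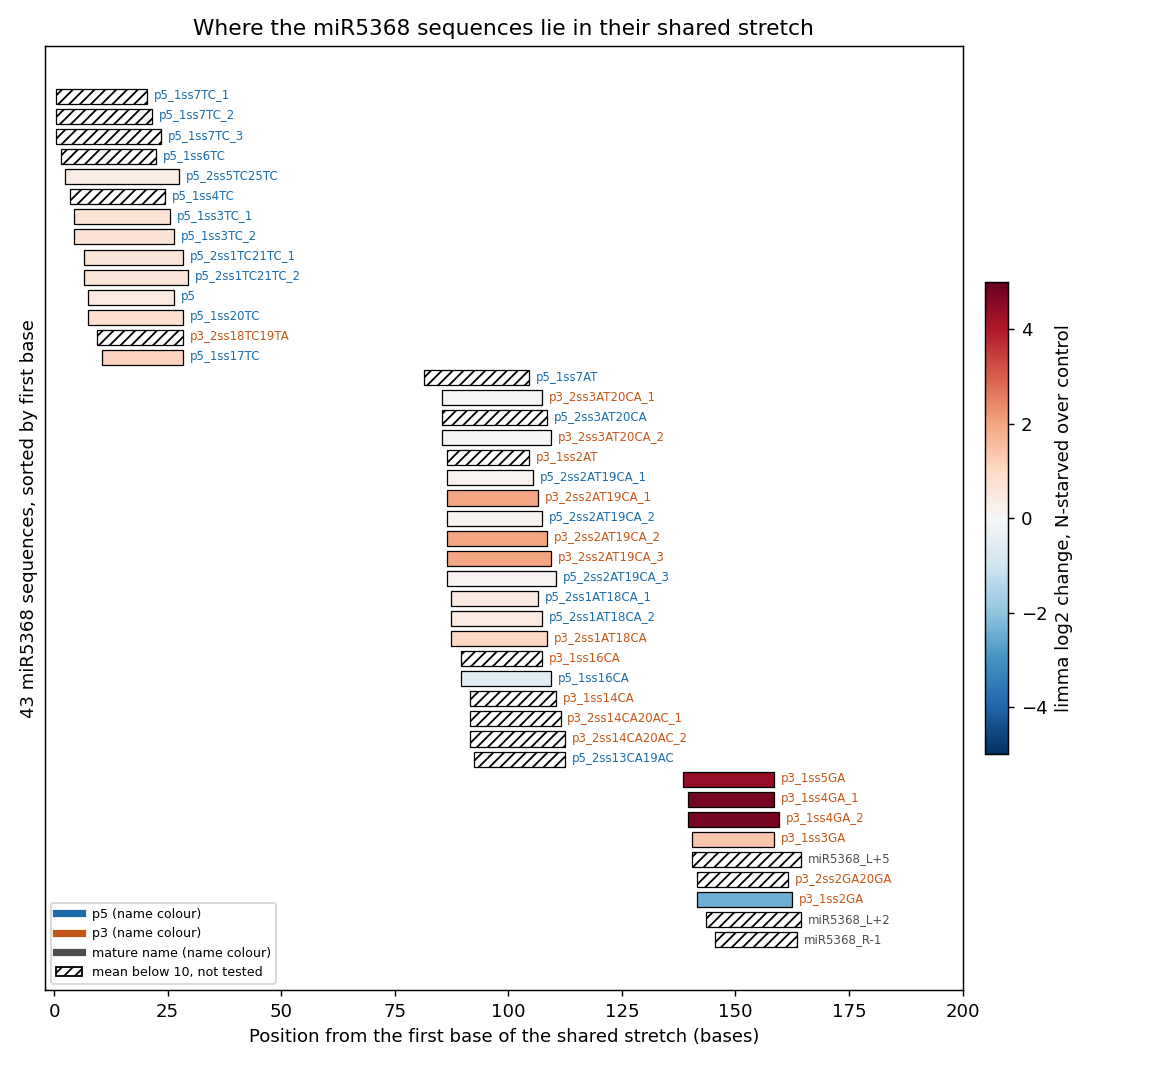
Position of the 43 miR5368 sequences (bars) along their shared stretch, in bases from its first base, with bar colour giving the limma log2 change of N-starved over control libraries and hatching marking sequences with a mean below 10. The members fall into 3 blocks, and the darkest bars, of both colours, lie in the right block.

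The substitutions written into the names follow from this layout. A name such as 1ss4GA stands for 1 substitution against the miRBase sequence, at position 4, from G to A. In all, 39 of the 43 names carry 59 substitutions, and each of the 59 falls on 1 of 8 bases of the stretch. The 6 names with a G-to-A change at positions 2 to 5 all refer to base 143, the 14 names with an A-to-T change at positions 1 to 7 to base 88, and the 18 with a C-to-A change at positions 13 to 20 to base 105. Within each of these groups, names with different positions therefore differ in where the sequence begins and not in the changed base.

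The sequences below are those of the 16 sets of values with a mean of 10 or more, and are shown so that the shift of their ends can be seen. Capitals mark the seed, bases 2 to 8, which guides target pairing of a miRNA. The prefix gma-MIR5368- is left out of these and all later names. The 43 sequences have 22 different seeds, exactly as many as first bases, and the largest group with a shared seed has 7 members. The left block, from the upstream to the downstream start, has 6 such sets.
p5_2ss5TC25TC: tGTTCCCTgggattggctttgggcc
p5_1ss3TC_1: tTCCCTGGgattggctttggg
p5_2ss1TC21TC_1: cCCTGGGAttggctttgggcct
p5: cCTGGGATtggctttgggc
p5_1ss20TC: cCTGGGATtggctttgggcct
p5_1ss17TC: gGGATTGGctttgggcct

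In the middle block there are also 6 sets, and p5 and p3 names occur at the same first base.
p3_2ss3AT20CA_1: aGTGAGATaccactctggaaga
p5_2ss2AT19CA_1: gTGAGATAccactctggaa
p3_2ss2AT19CA_1: gTGAGATAccactctggaag
p5_2ss1AT18CA_1: tGAGATACcactctggaag
p3_2ss1AT18CA: tGAGATACcactctggaagag
p5_1ss16CA: aGATACCActctggaagagc

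The right block holds 4 tested sets, among them the sequences on which the N starvation results turn. Those named 1ss5GA, 1ss4GA and 1ss3GA end at base 158 or 159, whereas 1ss2GA runs on to base 162. The entries miR5368_L+2 and miR5368_R-1 are shown because they carry the mature name, which places the start of the miRBase sequence at base 146.
p3_1ss5GA: gGCCAAGGgacagtctcagg
p3_1ss4GA_1: gCCAAGGGacagtctcagg
p3_1ss4GA_2: gCCAAGGGacagtctcaggt
p3_1ss3GA: cCAAGGGAcagtctcagg
p3_1ss2GA: cAAGGGACagtctcaggtaga
miR5368_L+2: aGGGACAGtctcaggtagaca
miR5368_R-1: gGACAGTCtcaggtagac

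Where several sequences share their values, only the first is printed for the left and middle blocks; in all 9 such groups the sequences have the same first base and the same arm label and differ in where they end. Within such a group an individual sequence cannot be told apart from the others. Start and label alone do not fix the values, since p5 and p5_1ss20TC both start at base 8 and have different ones.

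The family was of low to moderate abundance. Its 31 sets summed to between 0.0281% (AuCG_N) and 0.103% (L6CG_N) of the summed values of the miRNA list in a library. Each distinct set of the list was counted once, and reads outside the list were not included. The authors' table classes 34 sequences as medium and 9 as low in expression. A read was worth 0.649 (L6WH_N) to 1.57 (AuCG_N) on the normalized scale. The libraries hold an estimated 0.975 to 2.31 M reads over all sequences of the list. Almost no value from fewer than 5 reads is listed, so a listed 0 stands for less than 3.25 (L6WH_N) to 7.84 (AuCG_N). AuCG_N had the highest limit and listed the fewest sequences. Conditions were compared for sequences with a mean normalized reads count of 10 or more (605 of the table), by fitting limma to log2(value + 1) with the progeny treatment, the parental treatment and the genotype as additive factors. Of the family, 25 sequences in 16 sets entered this fit, and 18 sequences in 15 sets did not.

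N starvation was the comparison in which miR5368 sequences were called, and the called sequences lay in the right block. Of the 25 sequences tested, limma called 3 higher without N (2 sets of values) and none lower at an adjusted p below 0.05 (Benjamini-Hochberg over the 605). Among all 605 sequences 9.59% were called higher and 15.4% lower, so the family's 12.0% called higher is near the background. At an unadjusted p below 0.05 there were 9 of the 25 and 203 of the 605, a like share. The called sequences were p3_1ss5GA, p3_1ss4GA_1 and p3_1ss4GA_2. Their control means were 1.26, 0 and 0, so they reached the mean of 10 only through the N-starved libraries, where they are high. With no filter on the mean the same 3 were called higher. The family's median log2 change over its 16 sets was 0.66, against -0.04 over the 538 distinct sets of the whole fit. Of the 16 sets 14 were above 0, against 258 of the 538. p3_2ss2AT19CA (control mean 7.46) and p5_2ss1AT18CA (7.44) likewise reached the mean of 10 only through the N-starved libraries. They and the called sets are counted among the 14 and in the median. With no filter the median over sequences was 0.46 for the 43 of the family and -0.06 for all 1473. As pieces of 1 shared sequence, the 16 are not independent of each other.

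p3_1ss4GA_1 and p3_1ss4GA_2 are sequences of 19 and 20 nt that start at base 140 and have the same values. They had 17.2, 54.0, 37.1 and 14.9 normalized reads in AuCG_N, AuWH_N, L6CG_N and L6WH_N, and were listed at 0 in all 4 control libraries. The same order of seed groups, AuCG, AuWH, L6CG and L6WH, is kept for all values below. The N-starved libraries averaged 30.8 ± 18.4 (SD of 4 libraries of different conditions), which rested on an estimated 11 to 53 reads a library. The fitted log2 change was 4.80 (SE 0.65, limma adjusted p = 0.00175), a value that depends on the pseudocount because all controls are at 0. With a pseudocount of 5 it was 2.70.

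p3_1ss5GA, which starts 1 base further upstream, had 32.9, 46.9, 49.7 and 13.0 normalized reads without N, against 0, 0, 0 and 5.03 with complete nutrients. Every N-starved library was thus above every control library, and L6WH was the only pair in which the control was listed above 0. The means were 35.6 ± 16.8 without N and 1.26 ± 2.51 with complete nutrients (SD, 4 libraries each), and limma gave a log2 change of 4.39 (SE 0.81, adjusted p = 0.00811; 2.65 with a pseudocount of 5). Both sets remained called when any 1 library was left out.

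p3_1ss3GA, of 18 nt, starts at base 141 and ends where p3_1ss5GA ends. It had 34.5, 79.4, 153 and 39.6 without N and 22.4, 34.2, 19.4 and 22.3 with complete nutrients. It was higher without N in all 4 pairs and the groups did not overlap, but the lowest N-starved library (34.5) and the highest control (34.2) were nearly equal. The log2 change of 1.38 (SE 0.52) did not pass (adjusted p = 0.103). The size differed between pairs beyond counting error: the log2 ratio was 2.98 in L6CG (95% interval 2.27 to 3.77), against 0.62 in AuCG (-0.27 to 1.51) and 0.83 in L6WH (0.18 to 1.50). The intervals are exact (binomial) and were taken from estimated reads, so that they hold for counting error only. Without AuCG_N the call was reached (log2 1.79, adjusted p = 0.0477), whereas without L6CG_N the change was 0.78 (adjusted p = 0.120).

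p3_1ss2GA, of 21 nt, starts at base 142 and ends at base 162. It went the other way in every pair, with 0, 11.2, 31.2 and 22.7 without N against 35.8, 69.7, 62.5 and 47.4 with complete nutrients. The highest N-starved library (31.2) was below the lowest control library (35.8). The fitted log2 change was -2.44 (SE 0.84), which limma did not call (adjusted p = 0.0800). It was called with a pseudocount of 5 (-1.76, adjusted p = 0.0234) and when L6CG_N (-3.14, adjusted p = 0.0233) or L6WH_C (-3.12, adjusted p = 0.0437) was left out. Without AuCG_N, the library at 0, it was -1.41 (adjusted p = 0.0592). Over the 3 pairs with a value above 0 on both sides the log2 ratio was -2.64 (95% interval -3.72 to -1.68) in AuWH, -1.0 (-1.67 to -0.36) in L6CG and -1.06 (-1.70 to -0.45) in L6WH.

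Together with p3_1ss4GA and p3_1ss5GA, these sequences were the ones whose N-starved and control libraries did not overlap. Of the 25 tested sequences 4 (3 sets) lay entirely above the controls, against 9.59% of the 605, and 1 lay entirely below them, against 16.4% of the 605. The 4 include the 3 called sequences, which passed the filter only through the N-starved libraries. By the weaker criterion of the same direction in all 4 pairs, 9 of the 25 (7 sets) were higher without N and 1 was lower, against 18.7% and 23.3% of the 605.

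**Figure D2:**
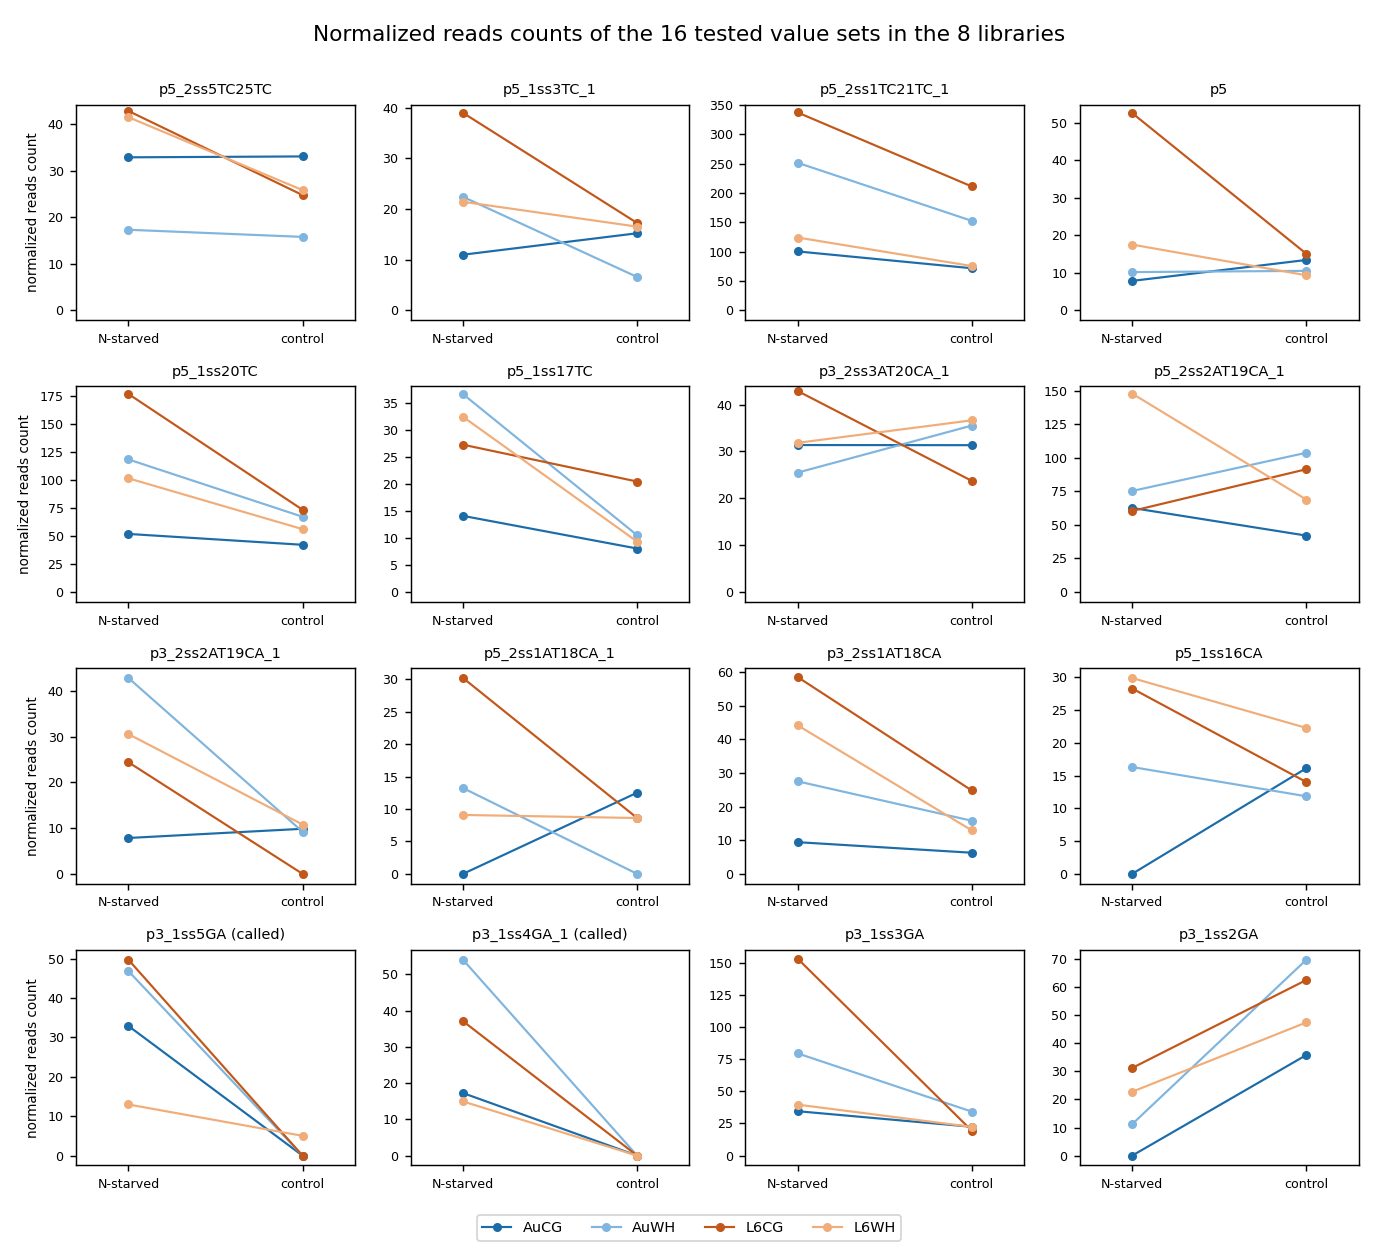
Normalized reads counts (vertical axes, a separate linear scale in each panel) of the 16 tested sets of values in the N-starved (left) and the control (right) library of each of the 4 pairs, joined by lines. p3_1ss5GA and p3_1ss4GA_1 were at or near 0 in the controls, while p3_1ss2GA was lower without N in all 4 pairs.

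Of the tested right-block sequences, those that were higher without N start at bases 139 to 141 and end at base 158 or 159, whereas the one that was lower starts at base 142 and ends at base 162, so that start and end cannot be told apart. Summed over sets, the sequences that end at base 158 or 159 had 84.6, 180, 240 and 67.5 normalized reads without N, against 22.4, 34.2, 19.4 and 27.3 with complete nutrients. Those that end past base 159 had 0, 30.6, 56.6 and 42.9 without N and 44.7, 92.0, 78.7 and 59.6 with complete nutrients. The earlier end therefore made up 100%, 85.5%, 80.9% and 61.2% of the block in the N-starved libraries and 33.3%, 27.1%, 19.8% and 31.4% in the controls. The later end was mostly p3_1ss2GA, and its fall rests mainly on that sequence, since miR5368_L+2, which also ends late, was higher without N in 2 pairs, level in L6WH and lower in AuCG. The share of the earlier end is a ratio within a library and does not depend on how libraries were scaled. It was chosen after the values were seen, and no test was made of it. A listed 0 stands for fewer than 5 reads, which bears most on AuCG_N, where none of the 5 sets with the later end was listed.

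**Figure D3:**
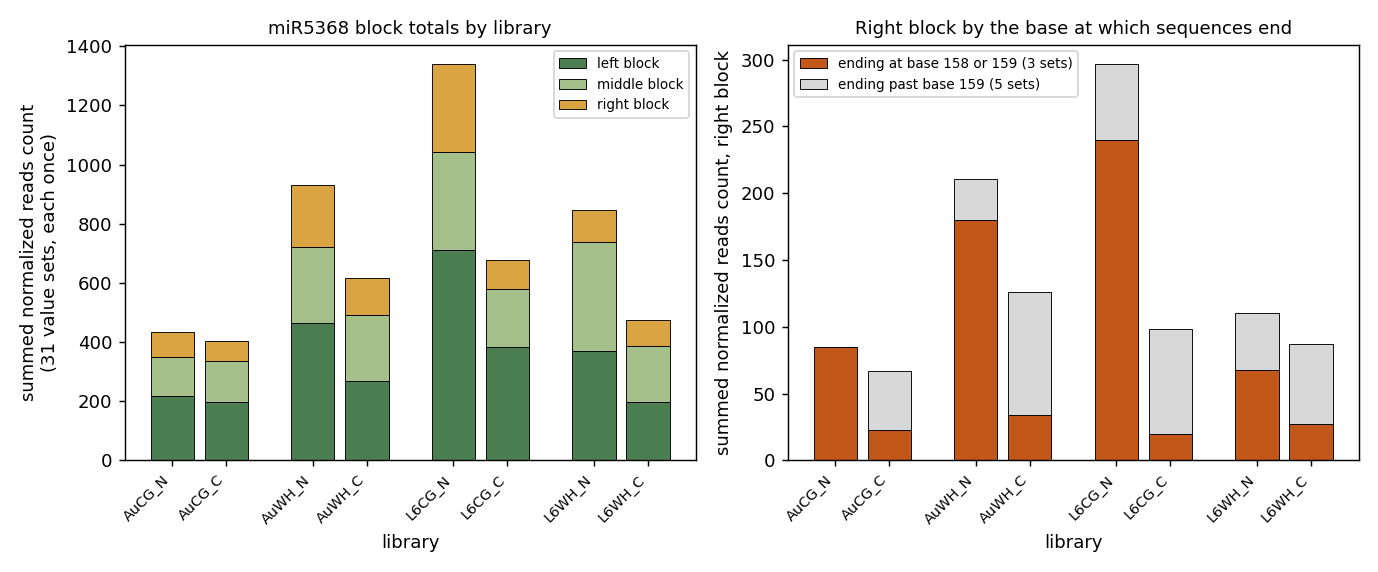
Left, summed normalized reads counts of the 3 miR5368 blocks in each library, with each of the 31 sets of values counted once; right, the right block split by the base at which its sequences end. In each pair the N-starved library is on the left, and the part ending at base 158 or 159 made up 61.2 to 100% of the right block without N and 19.8 to 33.3% in the controls.

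The left block, whose tested members all have p5 names, showed smaller differences, and none passed the test. All 6 sets had a positive log2 change, between 0.39 and 1.14, with a median of 0.66. Some of these sizes moved when 1 library was left out. The change of p5 was 0.46 in the full fit and 0.0011 without L6CG_N. That of p5_2ss1TC21TC ranged from 0.30 (without AuWH_N) to 1.02 (without AuCG_N). For p5_1ss17TC the range was 0.84 (without AuWH_N) to 1.47 (without L6CG_C). The most abundant of the family was p5_2ss1TC21TC (2 sequences of 22 and 23 nt, from base 7), with 100, 252, 337 and 124 without N against 71.6, 153, 211 and 75.4 with complete nutrients. It was higher without N in all 4 pairs by similar amounts, log2 0.49, 0.72, 0.68 and 0.72. The control libraries differed between seed groups, from 71.6 to 211, and the fitted change was 0.65 (SE 0.52, limma adjusted p = 0.428). With seed group as a block for the 4 pairs, the limma adjusted p was 0.0734, still not a call.

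p5_1ss20TC starts 1 base downstream, is 21 nt long and was second in the left block, with 51.7, 118, 176 and 101 without N and 42.1, 67.1, 73.3 and 56.0 with complete nutrients. All 4 pairs were higher without N and the groups overlapped (log2 0.80, SE 0.37, limma adjusted p = 0.175, and 0.0734 with seed group as a block). p5_1ss17TC, the shortest at 18 nt, had 14.1, 36.7, 27.3 and 32.5 without N and 8.05, 10.5, 20.5 and 9.34 with complete nutrients. It was again higher in all 4 pairs, with the largest log2 change of the block (1.14, SE 0.43, adjusted p = 0.103). These 3 starts share the same end at base 28, except for the 23-nt sequence, which is 1 base longer.

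The other left-block sets did not keep a direction over the pairs. p5_2ss5TC25TC had 32.9, 17.3, 42.9 and 41.6 without N and 33.1, 15.8, 24.8 and 25.9 with complete nutrients. p5_1ss3TC (2 sequences) had 11.0, 22.4, 39.0 and 21.4 without N, against 15.2, 6.57, 17.2 and 16.5 with complete nutrients. The entry p5, whose name shows no substitution, had 7.84, 10.2, 52.7 and 17.5 without N and 13.4, 10.5, 15.1 and 9.34 with complete nutrients. In each of these the N-starved L6CG library was the highest, and the DBA Aurora pair from control parents was level or lower without N. Their adjusted p values were 0.454, 0.318 and 0.571.

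In the middle block p5 and p3 names stand for the same start but carry different values. From base 87, p5_2ss2AT19CA (3 sequences) had 62.7, 75.4, 60.5 and 148 without N, against 42.1, 104, 91.6 and 68.9 with complete nutrients. p3_2ss2AT19CA (3 sequences, of 20, 22 and 23 nt) had 7.84, 42.8, 24.4 and 30.5 without N, against 9.84, 9.20, 0 and 10.8 with complete nutrients. The p5 set was higher without N in 2 pairs and lower in 2 (log2 0.15, SE 0.34), whereas the p3 set was higher in 3 of 4 pairs (log2 1.97, SE 0.75, adjusted p = 0.107). The p3 set had a control mean of 7.46, so it reached the mean of 10 only through the N-starved libraries. In L6CG the sets moved apart, since the p5 set was lower without N (log2 -0.60, 95% interval -1.10 to -0.11) while the p3 set was listed only in the N-starved library. The p3 set passed when AuCG_C was left out (2.64, adjusted p = 0.0477), whereas it was at 1.20 without L6CG_C (adjusted p = 0.227) and at 1.40 without L6CG_N (adjusted p = 0.220).

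From base 88, p3_2ss1AT18CA had 9.41, 27.5, 58.5 and 44.2 without N and 6.26, 15.8, 24.8 and 12.9 with complete nutrients. It was higher without N in all 4 pairs (log2 1.05, SE 0.49, adjusted p = 0.179). p5_2ss1AT18CA (2 sequences), with the same start, had 0, 13.2, 30.2 and 9.09 without N and 12.5, 0, 8.62 and 8.62 with complete nutrients. Its SE of 1.12 was the largest of the family, and no direction can be read (log2 0.46, adjusted p = 0.808). With a control mean of 7.44, it also entered the fit only through the N-starved libraries.

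p3_2ss3AT20CA (2 sequences, from base 86) was the steadiest of the family, with 31.4, 25.5, 42.9 and 31.8 without N and 31.3, 35.5, 23.7 and 36.6 with complete nutrients. Its log2 change of 0.04 (SE 0.30, adjusted p = 0.944) turned to -0.15 with equal library totals. p5_1ss16CA, from base 90, had 0, 16.3, 28.3 and 29.9 without N and 16.1, 11.8, 14.0 and 22.3 with complete nutrients. It was higher without N in 3 pairs and listed at 0 in AuCG_N, and its log2 change of -0.57 (SE 0.86, adjusted p = 0.692) turned to 0.25 after quantile normalization.

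**Figure D4:**
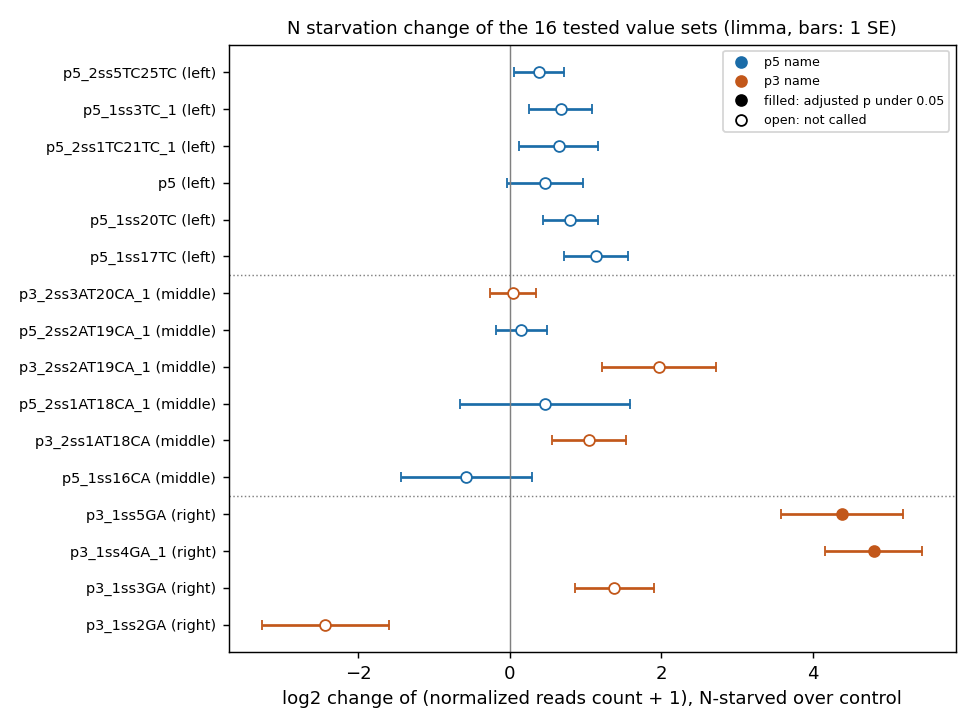
limma log2 change of N-starved over control libraries (horizontal axis, points with 1 SE) for the 16 tested sets, from the upstream to the downstream start, with p5 and p3 names in different colours and filled points for an adjusted p below 0.05. The 2 filled points, p3_1ss5GA (4.39) and p3_1ss4GA_1 (4.80), and the lowest point, p3_1ss2GA (-2.44), are all in the right block.

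Set apart by arm label, the 9 tested p5 sets had log2 changes of -0.57 to 1.14 (median 0.46) and none was called. The 7 tested p3 sets ranged from -2.44 to 4.80 (median 1.38), with the 2 calls. Of these, p3_1ss5GA, p3_1ss4GA and p3_2ss2AT19CA had control means of 1.26, 0 and 7.46. They passed the filter only through the N-starved libraries, as did p5_2ss1AT18CA (7.44) among the p5 sets. The higher p3 median rests in part on these sets and is not read as a difference between the arms. The labels follow position only in part, since the left block is nearly all p5, the right block has no p5, and the middle block has both.

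Summed by block, the left block had 218, 464, 710 and 370 normalized reads without N and 199, 270, 383 and 198 with complete nutrients. For the middle block the sums were 130, 256, 332 and 367 without N and 138, 222, 197 and 189 with complete nutrients. The right block had 84.6, 211, 296 and 110 without N and 67.1, 126, 98.1 and 86.9 with complete nutrients. The N-starved library was the higher in all but the middle block of AuCG, where the direction turned when sequences and not sets were summed. AuCG had the smallest log2 ratio in the left and middle blocks. In the right block AuCG and L6WH were close (0.33 and 0.35), and their order turned when sequences were summed (0.60 and 0.53).

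Pairs of libraries were also compared by the thresholds of the study's methods, p below 0.05 and a log2 ratio past 1 in either direction. The methods name a chi-square test and Fisher's test, and Fisher's exact test was used here. It compares 2 libraries and not conditions. In AuCG 3 of the 43 sequences were called higher without N and 11 lower, against 13.1% and 31.1% of all 1473. All 11 lower calls were of sequences listed at 0 in AuCG_N, the library with the highest limit, and 6 remained when the test was run on estimated reads. In AuWH 14 were higher and 6 lower (14.5% and 17.0% of all). In L6CG 22 were higher and 6 lower (14.2% and 22.1% of all). In L6WH 14 were higher and 1 lower (11.1% and 21.4% of all). With the chi-square test 15 were higher in AuWH, and the other family counts were the same. Among all 1473, the chi-square test called 281 higher in AuWH and 265 in L6CG, against 214 and 209 by Fisher's test.

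Over the 4 pairs, 20 of the 43 sequences were called higher only, 7 lower only, 9 higher in some pairs and lower in others, and 7 in no pair. p3_1ss4GA_1 and p3_1ss4GA_2 were called higher in all 4 pairs, and p3_1ss2GA was called lower in all 4, with L6CG at a ratio just past the threshold. p3_1ss5GA and p3_2ss2AT19CA were called higher in 3 pairs and lower in none. Of the 9 called both ways, 6 had a mean below 10. An example is p3_1ss2AT, listed only in L6WH_N (7.14), AuWH_C (7.89) and L6CG_C (7.54), each a value of 6 to 11 estimated reads.

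The 15 sets below a mean of 10 had means of 0.81 to 9.20, and none was listed in all 8 libraries. The highest single value among them was 31.2, for p3_1ss16CA in L6CG_N, against 6.46 in L6CG_C. Among the mature names, miR5368_L+2 had 0, 14.3, 18.5 and 6.49 without N and 8.95, 9.20, 9.70 and 6.46 with complete nutrients. miR5368_L+5 did not exceed 7.14 in any library, and miR5368_R-1 was listed in L6WH_N alone (6.49). Averaged over the 8 libraries the entries with the mature name had 0.81 to 9.20 normalized reads, against 15.4 to 50.6 for the 5 tested p3 sequences of the same block. In single libraries the order could turn, since miR5368_L+2 was above p3_1ss4GA and p3_1ss5GA in every control.

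Parental WH stress gave no called sequence, neither among the 25 nor among all 605 (0.0% of the 605; 0 of the 25 and 10 of the 605 at an unadjusted p below 0.05, limma). The log2 changes of WH over CG ranged from -0.54 to 1.52 over the 16 sets. For DBA Aurora over L6, 2.64% of the 605 were called and none of the family (1 of the 25 and 84 of the 605 at an unadjusted p below 0.05). The log2 difference was above 0 in 2 of the 16 sets and below 0 in 14, whereas 259 of all 538 sets were above 0. The medians were -0.46 and -0.04. The lowest p was that of p3_2ss1AT18CA, with 9.41 and 27.5 in the N-starved and 6.26 and 15.8 in the control libraries of DBA Aurora, against 58.5, 44.2, 24.8 and 12.9 in L6 (log2 -1.18, SE 0.49, limma adjusted p = 0.313).

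Whether the change without N differed by parental treatment or by genotype was tested by adding each interaction to the model. No sequence was called for N starvation by parental stress (0.0% of the 605, with 0 of the 25 and 10 of all at an unadjusted p below 0.05). None was called for N starvation by genotype either (0.0%, with 0 of the 25 and 34 of all). The larger ratio of p3_1ss3GA in L6CG is a difference between pairs of libraries. Its log2 interaction was -0.76 (SE 1.09) with parental stress and -0.96 (SE 1.05) with genotype. With errors of this size the model could not decide whether the ratio goes with a genotype or a parental treatment.

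For parental stress by genotype there was again no call (0.0% of the 605), but 4 of the 25 sequences, against 19 of the 605, had an unadjusted p below 0.05. The lowest was that of p5_2ss1TC21TC, the most abundant set. In DBA Aurora it had 252 (N) and 153 (C) normalized reads in progeny of WH parents, against 100 and 71.6 in progeny of CG parents. In L6 it had 124 and 75.4 in progeny of WH parents, against 337 and 211 in progeny of CG parents. The WH libraries were higher in DBA Aurora and lower in L6, at both N levels. The interaction was 2.65 on the log2 scale (SE 0.42, limma adjusted p = 0.166). p5_1ss20TC, which starts 1 base downstream, had an interaction of 1.51 (SE 0.52, adjusted p = 0.918), and p3_2ss1AT18CA of 1.97 (SE 0.70, adjusted p = 0.918).

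The same fit gave values for other families, which were not tested against miR5368. Of the 35 tested sequences of the nutrient-related families miR169, miR395, miR399 and miR827, 31 were called lower and none higher, with a median log2 change of -5.02. Of the 49 tested Group 3 sequences outside the family, 8 were called higher (16.3%, against 12.0% for miR5368) and 4 lower, with a median of 0.12. A sequence of another family, bdi-MIR7767-p3_2ss17GC18AT, matches within at least 1 of the miR5368 stretches. It had 11.0, 13.2, 45.8 and 27.9 normalized reads without N and 17.9, 17.1, 9.70 and 15.1 with complete nutrients, so that both DBA Aurora pairs were lower and both L6 pairs higher without N.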

How the data were processed

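Small RNA of 8 shoot libraries, each a pool of 6 seedlings, was read as 50-nt single ends. Per the methods and the file headers, the authors removed adapters, unsuitable lengths and reads of other RNA classes, and used ACGT101-miR with miRBase and the Svevo.v1 genome for annotation. Their program gave the deposited values, a signal called normalized reads count; the scaling factor of each library is not stated in the sources used. Conditions were taken from the sample labels.

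Entries were reduced to 1473 distinct sequences. Values plus a pseudocount of 1 were analysed on the log2 scale in R 4.3.3 with limma 3.58.1 and its mean-trended moderation (4 residual degrees of freedom), for the 605 sequences with a mean of 10 or more and at a Benjamini-Hochberg adjusted p of 0.05. Each interaction was added in turn. As every condition is 1 library, p values measure the spread between matched libraries of different conditions. The model was tested on simulated data. Fisher's exact test (SciPy) was applied to rounded values in 4 pairs. Reads were estimated from the largest step of which nearly all low values in a library were whole multiples. The 95% intervals cover counting error only. Every set with a mean of 10 or more is described with all its values; sets below it are named only for a call, the highest value or the mature name. bdi-MIR7767-p3_2ss17GC18AT was named for its position. The members and lists were chosen with earlier results of these data known. Alternatives covered the pseudocount, filter, scaling, shared values, pairing and each library left out.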

Additional observations from a re-analysis of the deposited data

How the results depend on the processing

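The calls of p3_1ss5GA and p3_1ss4GA held under all 16 alternatives run, with log2 changes of 2.65 to 5.19 and 2.70 to 5.18. Of 256 values over the 16 sets, 236 kept their direction and side of the threshold. The number of family sequences called higher (3) was 9 after quantile normalization, which added p3_1ss3GA (1.70), p3_2ss2AT19CA (2.75), p5_1ss17TC (2.01) and p5_1ss20TC (1.11), and 3 to 6 with 1 library left out, the 6 being without AuCG_C. The number called lower (0) was 1 with a pseudocount of 5, and 0 to 1 with 1 library left out. Quantile normalization placed the median log2 change of all 605 sequences at 0.17 and equal totals at -0.24, against -0.06 as reported; the family's median was 1.19, 0.44 and 0.65 over sequences. With equal totals p3_2ss3AT20CA was at -0.15 and p5_2ss2AT19CA at -0.049; after quantile normalization p5_1ss16CA was at 0.25. With 1 library left out p3_2ss3AT20CA ranged from -0.17 to 0.19, p5_2ss2AT19CA from -0.13 to 0.38, p5_2ss1AT18CA from -0.49 to 1.62 and p5_1ss16CA from -1.14 to 0.49. The pairwise rule gave 6 sequences lower in AuCG on estimated reads, and over distinct sets 9 (AuWH) and 7 (L6WH) higher. Summed over sequences, the middle block of AuCG was 0.084 (log2 of N-starved over control) against -0.083 over sets and that of L6CG 0.51, and the right block was 0.60 in AuCG and 1.07 in AuWH. The cause of these shifts was not tested. No alternative gave a family call for parental stress, genotype or an interaction. With seed group as a block for the 4 matched pairs the 3 calls remained (3 higher, 0 lower). edgeR and DESeq2 were not run, since the values are not counts. Depth limits sets below a mean of 10 most, where a value rests on few reads, and AuCG_N, where a listed 0 stands for less than 7.84.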
